A study of Zea mays with 6 samples.

Results

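MEG1, ae1 and LCR70 are names of small secreted or early seed proteins of plants, and 3 maize transcript models carry them in the deposited protein descriptions. The models are GRMZM2G145466_T01 (described as MEG1), GRMZM2G112855_T01 (described as ae1 protein precursor) and GRMZM2G380656_T01 (described as low-molecular-weight cysteine-rich protein LCR70 precursor). They were picked by identifier from the 42007 models with a read, because their level was high in the embryo sac and lower after pollination. Those levels are therefore given as a description, without a test. The study asked which transcripts of the embryo sac, the female gametophyte with the egg cell, bear on its interaction with the pollen tube. RNA-seq was done on the maize inbred line Q319 in 3 tissues, with 2 libraries each: embryo sacs taken 14 to 16 h after pollination (pollinated embryo sac), embryo sacs without that treatment in their labels (unpollinated embryo sac), and the nucellus, the maternal ovule tissue around the embryo sac. Per the labels, embryo sacs and nucellus were freed from ovule slices with enzymes, poly(A) RNA was sequenced, and the 2 libraries of a tissue are biological replicates. In such bulk samples, fewer cells of a type and less RNA per cell cannot be told apart.

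Small cysteine-rich proteins carry a signal peptide, are secreted, and fold around disulfide bridges between their cysteines. In flowering plants many of them are made by the cells of the embryo sac, where some attract the pollen tube or act at fertilisation, and others resemble antimicrobial defensins. MEG1 (maternally expressed gene1) of maize is known from the basal transfer layer of the young endosperm, where its imprinted gene acts in the supply of sugar to the seed. The ae genes, for androgenic embryo, were found in maize embryos raised from microspores and are known from early endosperm. They share the symbol ae1 with amylose extender1, a starch branching enzyme gene that is unrelated to them. LCR70 takes its name from a family of Arabidopsis proteins related to plant defensins.

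The names are those of the best protein match and do not always name the gene itself. The MEG1 match had an E-value of 4.5e-14, and the reference gene table gives the name MEG1 to another gene, GRMZM2G354335, for which no model with a read was listed. The ae1 match of GRMZM2G112855_T01 had an E-value of 1.58e-10, and the gene named ae1 in that table is GRMZM2G039942, with its own model. LCR70 is the exception, since its match, with an E-value of 1.09e-33, belongs to GRMZM2G380656 itself. GRMZM2G145466_T01 and GRMZM2G112855_T01 are therefore called MEG1-described and ae1-described here. Each was the single listed model of its gene. The model lengths are 480 bases for the MEG1-described model, 461 for the ae1-described model and 1283 for LCR70.

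The libraries held 2541 to 3259 kilo-reads, 1 kilo-read being 1000 unique reads. The tissue labels were checked against 9 models of known embryo sac genes (EBE-2, ES, EGG APPARATUS-1 and di-SUMO-like). Their summed level was 1974 and 2039 CPM in pollinated embryo sac, 2214 and 2269 CPM in unpollinated embryo sac, and 5.63 and 8.72 CPM in nucellus. A single EBE-2 model (GRMZM2G167733_T02) held 1005 and 1112 CPM of the pollinated sums and 1424 and 1352 CPM of the unpollinated ones. Its reads covered 13.4% to 13.5% of its length in these libraries. EBE-1 (GRMZM2G129157_T01), which was not in this list, had 765 and 772 CPM in pollinated and 675 and 712 CPM in unpollinated embryo sac. In nucellus EBE-1 had 14.1 and 13.3 CPM, above the sums of the 9 models there. CPM is the read count relative to library total after TMM scaling, which sets the bulk of the transcriptome equal between libraries. Summed pollen-type descriptions (38 models) ranged over 120 to 136, 93.4 to 99.9 and 97.2 to 117 CPM in the same order of tissues. A list of 44 models for nucellus and other sporophytic tissue reached 85.3 to 101, 462 to 475 and 305 to 376 CPM. Models described as CYP71C36 held 368 and 383 CPM of it in unpollinated embryo sac, and without them the sums were 38.1 to 42.1, 91.5 to 93.8 and 305 to 376 CPM, an alternative added after seeing the data. Bearded-ear1, a MADS-box gene of that list, had 0 to 1.02 CPM in pollinated embryo sac, no read in unpollinated embryo sac, and 48.6 to 62.8 CPM in nucellus. The part of tissue carry-over in the results was not tested.

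The MEG1-described model was among the abundant transcripts of the unpollinated embryo sac, kept a lower level after pollination, and had no read in nucellus. It had 354 and 283 reads in the pollinated libraries, 2382 and 1997 in the unpollinated ones, and none in either nucellus library. As a share of all unique reads this is 0.0139% and 0.0106% after pollination, against 0.0731% and 0.0661% before (Wilson 95% intervals of 0.0126% to 0.0155%, 0.0094% to 0.0119%, 0.0702% to 0.0761% and 0.0633% to 0.069%, counting error only). The pollinated libraries lay below the unpollinated ones, and the nucellus libraries below both. Of the 18844 tested models, 40.1% had both pollinated libraries below both unpollinated ones, 41.6% had both pollinated libraries above both nucellus ones, and 39.3% had both unpollinated libraries above both nucellus ones. Among the models of a library it ranked 316 and 454 by RPKM (the read count relative to model length and library total) after pollination, and 37 in both libraries before.

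The ae1-described model followed the same order of tissues at a lower level. It had 162 and 138 reads in pollinated embryo sac, 952 and 661 in unpollinated embryo sac and none in nucellus. The shares were 0.00638% and 0.00515% of reads after pollination (intervals of 0.00547% to 0.00744% and 0.00436% to 0.00608%), against 0.0292% and 0.0219% before (0.0274% to 0.0311% and 0.0203% to 0.0236%). Here too the libraries before and after pollination were apart, although the 2 unpollinated libraries differed from each other by more than their counting intervals. Its rank by RPKM was 780 and 989 after pollination and 100 and 129 before.

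LCR70, the defensin-like member, changed most between the embryo sac tissues and was the one member seen in nucellus. It had 73 and 60 reads in pollinated embryo sac, 2774 and 1855 in unpollinated embryo sac, and 13 and 24 in nucellus. The shares were 0.00287% and 0.00224% after pollination, 0.0851% and 0.0614% before, and 0.000433% and 0.00075% in nucellus, where the intervals were 0.000253% to 0.00074% and 0.000504% to 0.00112%. No library of one tissue reached into the range of another. For each pair of tissues, 39.3% to 41.6% of tested models lay apart in the same direction. By RPKM it ranked 4635 and 5441 after pollination, 96 and 127 before, and 15013 and 12314 in nucellus, among 26734 to 33296 models listed per library.

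**Figure D1:**
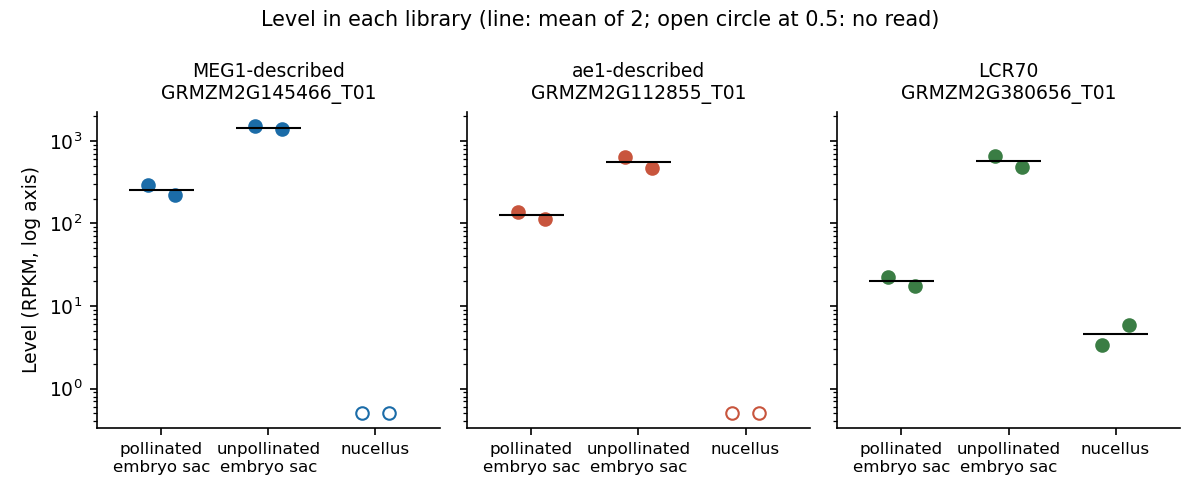
Level of each member in every library on a log RPKM axis; each point is 1 library, the line is the mean of 2, and open circles mark libraries without a read. All 3 members stand highest in unpollinated embryo sac, and LCR70 drops furthest after pollination, to 22.4 and 17.4 RPKM against 663 and 478 RPKM before.

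On the RPKM scale, which allows genes to be compared, the order of the members differed between tissues. In pollinated embryo sac the MEG1-described model averaged 255 ± 49.7 RPKM (SD, n = 2 for all values of this kind), the ae1-described model 125 ± 18.8 and LCR70 19.9 ± 3.5. In unpollinated embryo sac they averaged 1450 ± 103, 554 ± 112 and 571 ± 131 RPKM. The ae1-described model and LCR70 thus did not differ beyond their spread before pollination, while every other neighbour in either order did. In nucellus LCR70 averaged 4.61 ± 1.75 RPKM. The RPKM of LCR70 rests on the full model length, of which reads covered a part.

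Pollination was the contrast on which the members were chosen, so the following log2 changes are a description. Relative to the unpollinated embryo sac, the MEG1-described model stood at a fitted log2 change of -2.34 ± 0.12 (SE), with 159 ± 29.1 CPM in pollinated and 804 ± 59.9 CPM in unpollinated embryo sac. The ae1-described model stood at -1.98 ± 0.13, with 74.9 ± 10.4 against 295 ± 60.9 CPM. LCR70 stood at -4.67 ± 0.15, with 33.2 ± 5.43 against 847 ± 197 CPM, so its mean was 25.5 times higher before pollination. For models not chosen by this contrast, a call needed a Benjamini-Hochberg adjusted p under 0.05 in the edgeR quasi-likelihood test and at least a 2-fold change, which 19.3% of tested models met in this direction. Nothing is read from the calls of the 3 members here, since their choice fixed them.

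The members were then placed among transcripts of similar abundance, as a description, since they were chosen for a high level and a fall. At least 100 CPM in unpollinated embryo sac was reached by 2222 tested models, whose median log2 change was 0.06 and of which 247 were called lower after pollination. In that set 1 model had a larger fall than LCR70, 34 a larger fall than the MEG1-described model and 51 a larger fall than the ae1-described one. Of these abundant models 30 had no read in nucellus, as the MEG1-described and ae1-described models do. In those 30, which hold both members, the median change was -0.15 and 10 were called lower.

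**Figure D2:**
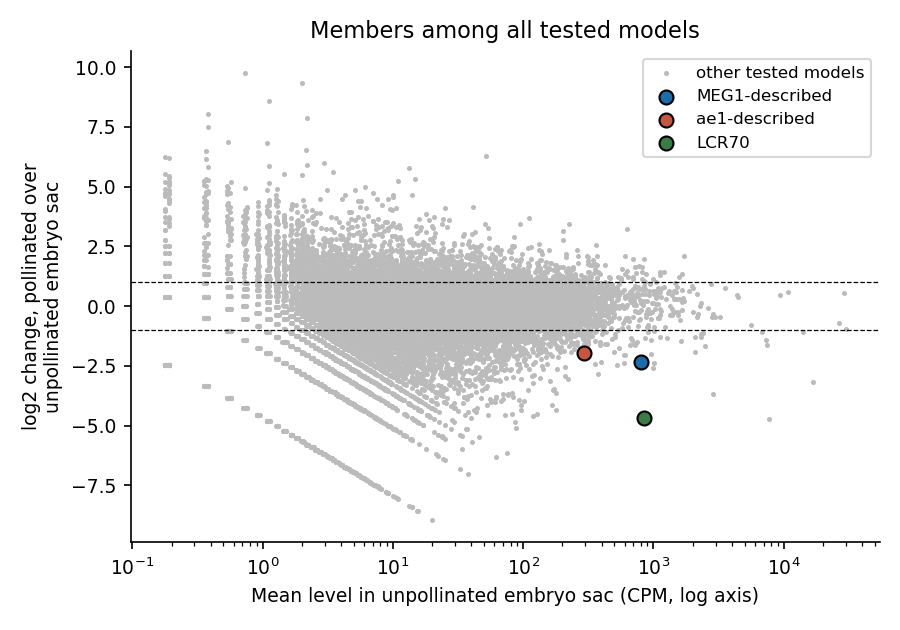
Fitted log2 change of pollinated over unpollinated embryo sac (vertical) against mean CPM in unpollinated embryo sac (horizontal, log axis); each grey point is a tested model, models without a read in unpollinated embryo sac are not drawn, and dashed lines mark a 2-fold change. The members, chosen for this fall, lie low among the abundant models, LCR70 lowest of the 3 at -4.67.

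The levels of the members relative to each other are given next, also as a description, since they rest on the levels that chose the members. Ratios of reads per kb within a library do not depend on how libraries are scaled to each other. The ae1-described model had 6.18 and 6.4 times the reads per kb of LCR70 in pollinated embryo sac, against 0.955 and 0.992 times in unpollinated embryo sac. The MEG1-described model had 13 and 12.6 times those of LCR70 after pollination, against 2.3 and 2.88 times before. It had 2.1 and 1.97 times those of the ae1-described model after pollination, against 2.4 and 2.9 times before.

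Both ratios to LCR70 were thus higher in both pollinated libraries, and the ratio of the other two was lower. On the log2 scale the ratio of ae1-described model to LCR70 was 2.65 ± 0.04 after and -0.04 ± 0.04 before pollination, a difference of 2.69. For the MEG1-described model and LCR70 it was 3.68 ± 0.03 against 1.36 ± 0.23, a difference of 2.31. For the MEG1-described and ae1-described models it was 1.02 ± 0.06 against 1.40 ± 0.19, a difference of -0.38. For each of the 3 pairs the libraries did not overlap, but any 2 of the ratios fix the third. How often ratios of other models do so was not computed. No test is read from these differences, since 2 libraries against 2 cannot give an exact two-sided permutation p below 0.333.

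**Figure D3:**
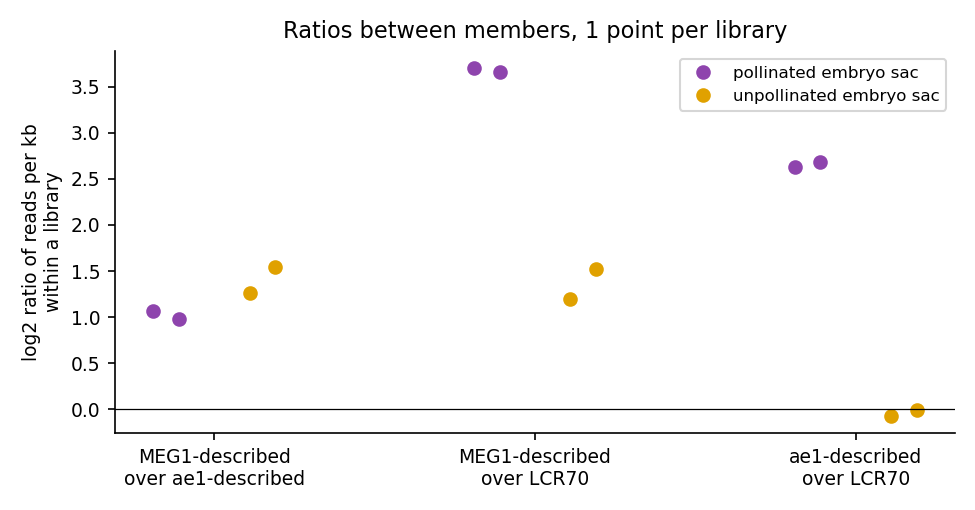
Log2 ratio of reads per kb of one member to another within each library; each point is 1 library, pollinated embryo sac on the left of each pair. The 2 ratios to LCR70 are 2.31 and 2.69 higher in pollinated embryo sac, and the ratio of the MEG1-described to the ae1-described model is 0.38 lower.

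Nucellus libraries played no part in choosing the members, but the pollinated libraries did, through the fall. The test of pollinated embryo sac against nucellus is therefore not independent of the choice. It asked whether the level left after pollination was above that of nucellus. The nucellus labels name no pollination, so tissue and pollination cannot be told apart in this contrast. Nucellus around pollinated embryo sacs was not measured. All 3 members were called higher, as were 27.2% of tested models. The MEG1-described model, at 159 ± 29.1 CPM in pollinated embryo sac, was at least 238-fold higher than 3 reads per nucellus library would give (edgeR adjusted p = 1.34e-66). The ae1-described model was at least 112-fold higher (edgeR adjusted p = 1.51e-45). LCR70 averaged 33.2 ± 5.43 CPM against 4.09 ± 1.57 CPM in nucellus, a log2 change of 3.00 ± 0.27 (edgeR adjusted p = 1.1e-17), and 2.09 with total count scaling. Over all tested models, that scaling moved the median change (log2) to -0.97 from -0.06 in this comparison, to -0.74 from 0.00 in unpollinated embryo sac against nucellus, and to -0.25 from -0.08 in pollinated against unpollinated embryo sac. With that scaling the log2 lower bounds were 6.98 for the MEG1-described model and 5.90 for the ae1-described one, against 7.89 and 6.81.

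Before pollination the distance to nucellus was larger, again as a description. The unpollinated mean was at least 1202-fold above 3 reads per nucellus library for the MEG1-described model and at least 441-fold for the ae1-described model. LCR70 stood at a log2 change of 7.67 ± 0.18 to nucellus, and at 6.93 with total count scaling. Higher calls made up 23.2% of tested models in that comparison. A share of 0 reads in nucellus allows up to 0.688 and 0.65 CPM, the value of 3 reads in each library. This contrast and the 2 others share libraries and are not independent.

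The LCR70 reads covered a part of the model in every library. Per the files, reads covered 30.8% and 34.8% of the model in pollinated embryo sac, 39.4% and 63.4% in unpollinated embryo sac, and 37.1% and 49% in nucellus. Reads were 49 bases long, as the models with 1 read show, so the 24 reads of the nucellus library with replicate number 2 covered 628 bases. The 2774 reads of unpollinated replicate 1 covered 506 bases. At least 122 bases covered in that nucellus library were therefore not covered in that embryo sac library. The 1855 reads of unpollinated replicate 2 covered 813 bases, more than either nucellus library, so that no such bound follows from it.

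Models of similar length and read count in the same library (both within 1.25 times) gave a measure of usual coverage. Their median coverage was 70.9% and 64.5% in pollinated embryo sac, 90% and 85.5% in unpollinated embryo sac, and 18.7% and 31.1% in nucellus, over 15 models or more in each library. LCR70 lay below that median in all 4 embryo sac libraries and above it in both nucellus libraries. The embryo sac reads thus lay on a smaller part of the model than usual at their number, at a mean depth over covered bases of 269 and 112 before pollination, while the mean depth was 1.34 and 1.87 in nucellus. The tables give no read positions or strand, and whether nucellus and embryo sac reads fall on the same stretch was not tested, a limit of the LCR70 changes against nucellus. The MEG1-described model was covered to between 89.4% and 97.7%, and the ae1-described one to between 95.9% and 97.8%, in every embryo sac library.

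**Figure D4:**
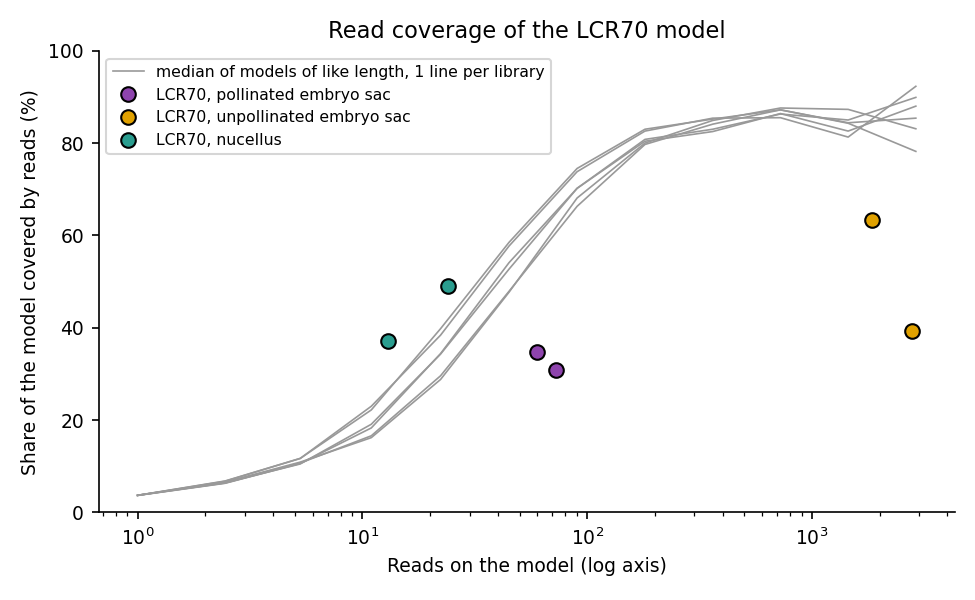
Share of the LCR70 model covered by reads (percent) against the number of reads on it (log axis), 1 point per library; grey lines are the medians of models of similar length in each library, by read count. Embryo sac points lie below the lines and nucellus points at 13 and 24 reads lie above them.

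The ae1 description was shared by 10 models of 8 genes, which allowed the ae1-described member to be set beside its relatives. The other 9 were chosen by name and had no part in the rule. All 9 were called higher than nucellus in pollinated embryo sac, against 27.2% of all tested models, and 7 of the 10 had no read in nucellus, with 7 nucellus reads over all 10. The member stood apart in its match, with an E-value of 1.58e-10, where the other 9 ranged between 1.09e-57 and 5.59e-70. Because only unique reads were counted, near-identical copies may lose or split reads, and levels within this family are uncertain. Several relatives were also covered in part only. In unpollinated embryo sac GRMZM2G040020_T01 was covered to 8.27% in both libraries (medians of models of similar length and read count 65% and 50.4%). GRMZM2G039942_T01 was covered to 50.2% and 49.8% (medians 86.3% and 82.8%), and the member to 97.2% and 97.6%.

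After pollination 1 of the other 9 was called lower and none higher in the edgeR test, against 19.3% lower and 13% higher over all tested models, so the count itself does not set the family apart. In the upward direction 1 had an unadjusted p under 0.05, and DESeq2 and limma called 0. The model called lower, GRMZM2G038024_T01, was the most abundant of the family, with 498 and 439 CPM in pollinated and 1172 and 1091 CPM in unpollinated embryo sac. It fell by 1.27 ± 0.11 on the log2 scale (edgeR adjusted p = 1.49e-22). The model of the gene named ae1, GRMZM2G039942_T01, had 171 and 145 CPM after pollination against 274 and 242 CPM before. Its log2 change of -0.71 ± 0.12 (edgeR adjusted p = 1.27e-07) stayed under the 2-fold threshold. In 5 of the other 9 models, with these 2 among them, both pollinated libraries lay below both unpollinated ones, as in 40.1% of tested models. The member stood at -1.98 ± 0.13, and the difference between the models was not tested.

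The remaining 7 ae1-described models were low and did not pass the test. Their means ranged between 11.2 and 19.7 CPM in pollinated embryo sac and between 7.93 and 24.1 CPM in unpollinated embryo sac. Their log2 changes lay between -0.53 (GRMZM2G118269_T01) and 0.76 (GRMZM2G040020_T02, edgeR adjusted p = 0.062). They had 22 to 43 reads in a pollinated library and 21 to 70 in an unpollinated one, and the SE of their log2 changes was 0.26 to 0.36. The ae1-described member made up 9.55% and 9.07% of the summed reads of the 10 models after pollination (Wilson 95% intervals of 8.24% to 11% and 7.73% to 10.6%), against 17.7% and 14.9% before (16.7% to 18.8% and 13.9% to 16%). GRMZM2G039942_T01 made up 19.8% and 19.5% against 14.3% in both unpollinated libraries. The androgenic embryo3 gene (GRMZM2G372553_T01), the other ae gene, had 3 reads in all.

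**Figure D5:**
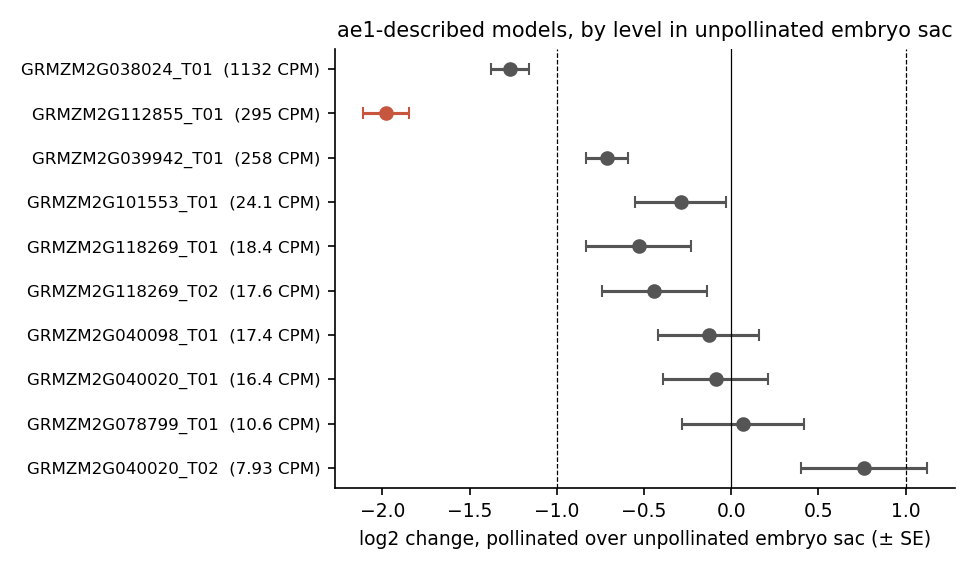
Log2 change of pollinated over unpollinated embryo sac, with its SE, for the 10 ae1-described models, ordered from top to bottom by mean CPM in unpollinated embryo sac (in brackets). The member GRMZM2G112855_T01 (coloured) lies lowest at -1.98, the more abundant GRMZM2G038024_T01 at -1.27, and the 7 low models between -0.53 and 0.76; dashed lines mark a 2-fold change.

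Other models described as LCR proteins, defensins or gamma-thionins were nearly silent in these tissues. Of 11 such models, LCR70 was the single one with enough reads to be tested. The one with the next most reads, a flower-specific gamma-thionin of 2750 bases (GRMZM2G368861_T01), had 1 and 1 reads in pollinated embryo sac, 10 and 15 in unpollinated embryo sac and none in nucellus. Another gamma-thionin (GRMZM2G392863_T01) had 8 and 6 reads after pollination, against 1 and 2 before. An LCR69 model (GRMZM2G153488_T01) had reads in nucellus alone, 4 and 15. Per length the order was another, since the LCR69 model averaged 4.23 RPKM in nucellus and GRMZM2G392863_T01 reached 3.85 RPKM in pollinated embryo sac, against 1.46 RPKM for GRMZM2G368861_T01 in unpollinated embryo sac. No other model was described as MEG1.

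Related groups of small secreted proteins were set beside the members, from lists of search terms. For the 4 ES models, cysteine-rich proteins of the maize embryo sac, none was called in either direction after pollination in the edgeR test, and their median log2 change was 0.35. At an unadjusted p under 0.05, 2 were higher and 1 lower, and DESeq2 and limma called 0. Of these, GRMZM2G009359_T01 stood at -0.33 (edgeR adjusted p = 0.00805) and GRMZM2G128301_T01 at 0.41 (edgeR adjusted p = 0.0325), both under the 2-fold threshold. Neither of the 2 EGG APPARATUS-1 models, of the family that attracts the pollen tube, was called by edgeR, DESeq2 or limma. GRMZM2G456746_T01 stood at 0.22. GRMZM2G157505_T01, the one with an unadjusted p under 0.05, rose by 0.81 ± 0.11 (edgeR adjusted p = 2.3e-10), which stayed under the 2-fold threshold. Over all tested models the median was -0.08, with 13% called higher and 19.3% lower. All 6 models of these lists were called higher in pollinated embryo sac than in nucellus, as the MEG1-described, ae1-described and LCR70 models were. Of all tested models 27.2% were called higher there. The 6 are among the 9 models that served to check the tissue labels, so no further support is drawn from them.

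Lists with wider expression went both ways after pollination. Of 7 tested RALF models, peptides that alkalinise the cell wall space, 2 were higher and 2 lower, where 13% of all tested models were higher and 19.3% lower. A RALF precursor (GRMZM2G301663_T01) rose by 1.06 ± 0.14 to 120 ± 6.46 CPM, against 57.4 ± 1.83 CPM before pollination (edgeR adjusted p = 7.73e-11), and missed the 2-fold threshold at 0.89 with total count scaling, where no RALF model was called higher. RALFL33 precursor (GRMZM2G029455_T01) fell by 3.59 ± 0.75, with 1 and 1 reads after against 10 and 25 before pollination (edgeR adjusted p = 1.98e-05).

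Of 13 tested protease inhibitor models, 2 were higher and 2 lower, and 2 and 5 with total count scaling. Cystatin7 (GRMZM2G148925_T01), an inhibitor of cysteine proteases, rose by 1.73 ± 0.11 to 1079 ± 51.4 CPM, against 324 ± 36.8 CPM (edgeR adjusted p = 4.09e-33). The lower one with the smallest p, AC208221.3_FGT002, is described as a trypsin inhibitor and had 8.7 ± 1.54 CPM after pollination, against 60.2 ± 14.4 CPM before, a log2 change of -2.78 ± 0.26 (edgeR adjusted p = 2.2e-18).

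Of 8 tested lipid transfer proteins, 2 were higher and 1 lower. Phospholipid transfer protein precursor (GRMZM2G010868_T01) had 57 and 59 reads after pollination against 1 and 1 before. The lower one was nonspecific lipid-transfer protein 4 (GRMZM5G898755_T01), with 4.24 ± 0.461 CPM after and 19.1 ± 1.12 CPM before pollination, at -2.16 ± 0.33 (edgeR adjusted p = 7e-09).

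Genes of the young endosperm, where MEG1 and the ae genes are known, were set beside the members too. ESR, BETL and CLE descriptions matched 4 models with 1 to 3 reads each over all libraries, and none was tested. The 2 GASA models, cysteine-rich peptides named for gibberellin, had 16 and 29 reads over all libraries and were not tested either. In the list of endosperm and seed descriptions, 2 of 4 tested models were lower and none higher in the edgeR test, where 19.3% of all tested models were lower and 13% higher. The list had 1 model higher at an unadjusted p under 0.05 and 0 called higher by DESeq2 or limma. The lower model with the smallest p, rough endosperm 3 (GRMZM2G128228_T01), a splicing factor gene, fell by 2.72 ± 0.29 to 5.47 ± 1.27 CPM, against 36.5 ± 3.39 CPM (edgeR adjusted p = 3.69e-16). It was higher in nucellus, at 64.3 ± 1.81 CPM. The other lower model, GRMZM5G849788_T01, is described as rough endosperm 3 too. It had 0.744 ± 0.334 CPM in pollinated embryo sac, 4.26 ± 0.993 CPM in unpollinated embryo sac and 7.17 ± 3.33 CPM in nucellus. Both EBE-type models of that list stayed under the threshold. GRMZM2G087766_T01, which like the MEG1-described model had no read in nucellus, had 507 and 449 CPM after against 273 and 244 CPM before pollination. Its log2 change was 0.89 ± 0.11 (edgeR adjusted p = 1.78e-12). GRMZM2G129157_T01 (EBE-1) stood at 0.15 ± 0.10, and had 58 and 65 reads in nucellus. Of the 9 embryo sac models of the tissue check, 1 was called lower and 0 higher, with 3 higher at an unadjusted p under 0.05. The lower one was an EBE-2 model (GRMZM2G167733_T01) at -1.85 ± 0.44, with 6 and 8 reads after against 41 and 28 before pollination. Its gene's other model, GRMZM2G167733_T02, stood at -0.39 ± 0.10. The di-SUMO-like model (GRMZM2G006324_T01) stood at -0.77 ± 0.19.

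The tested models with the profile nearest to each member were found by the root mean square difference of log2(CPM + 1) over the 6 libraries. For the MEG1-described model these were GRMZM2G175165_T01, GRMZM2G101584_T01 and GRMZM2G355761_T01, at 0.40, 0.46 and 0.58, none with an informative description. GRMZM2G175165_T01 had 250 and 230 CPM after pollination, 1025 and 892 CPM before, and 1 read in nucellus. For the ae1-described model they were GRMZM2G074236_T01, GRMZM2G364349_T01 and GRMZM2G038714_T01, at 0.30, 0.33 and 0.33. GRMZM2G364349_T01, described as a precursor protein, had no read in nucellus either, with 91.9 and 116 CPM after against 351 and 277 CPM before pollination.

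No model came as close to LCR70. Its nearest was GRMZM2G479906_T01 at 1.05, with 84.8 and 73 CPM after and 371 and 419 CPM before pollination. The next was GRMZM2G079440_T01 at 1.41, whose gene the reference names dhn1 (rab17), a dehydrin gene of water stress and seed maturation, while its deposited description names a polymerase subunit. A trehalose-phosphate phosphatase (GRMZM2G178546_T01), of trehalose synthesis, followed at 1.48. With a pseudocount of 0.1 in place of 1, 5 of these 9 models were again among the nearest 3.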

How the data were processed

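Each library has a deposited table of counts of unique reads per transcript model, per the file headers; models without a read are not listed and were taken as 0. The authors' deposited RPKM values equal count per length and total (largest relative difference 1.39e-08), and the coverage is the authors' percent of the model length with reads. No source used here names the aligner, counting tool or genome build. Names came from the deposited protein descriptions and from a RefSeq gene table (Zm-B73-REFERENCE-NAM-5.0, used for names only), which matched 62.7% of models. No protein or promoter sequences were used here, so the planned lists by protein sequence and promoter motifs were not run.

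Counts of all 6 libraries were fitted in edgeR 4.0.16 (R 4.3.3; filterByExpr, TMM, robust quasi-likelihood), leaving 18844 of 42007 models. TMM factors were 0.782 and 0.768 for pollinated embryo sac, 0.874 and 0.878 for unpollinated embryo sac, and 1.48 and 1.47 for nucellus. A call needed an adjusted p under 0.05 and an absolute log2 change of at least 1. The SE is the log2 change divided by the root of its F value. Zero counts were replaced by 3 reads per library for bounds, and bounds and intervals cover counting error only. DESeq2 1.42.0 and limma 3.58.1 (on log2(RPKM + 1), mean RPKM of at least 1) were alternatives. The fit was tested on simulated data. The members and lists were chosen with earlier results of these data known. Named models were the members, all tested models of the MEG, ae and LCR lists, and the 3 nearest profiles of each member. Known embryo sac models and the called model with the smallest p in each direction of each other list were named too. Defensin-like models under the filter, the EBE-described models, GRMZM5G849788_T01 and GRMZM2G372553_T01 were named after their values were seen.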

Additional observations from a re-analysis of the deposited data

How the results depend on the processing

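The planned counts of cysteine-rich proteins by sequence were not run. Of 547 recomputed values, 516 kept their direction and side of the threshold, or moved by less than the spread between replicates. In pollinated against unpollinated embryo sac, over all settings the log2 change ranged from -2.53 to -2.15 for the MEG1-described model, from -2.17 to -1.75 for the ae1-described model and from -4.88 to -4.41 for LCR70. All 3 members stayed called against nucellus after pollination, in a contrast that is not independent of their choice. Counts of calls depended on scaling. Pollinated embryo sac against nucellus gave 5132 higher and 5268 lower models, 3264 and 9173 with total count scaling, and 3361 and 9426 with limma. Lower calls of unpollinated embryo sac against nucellus numbered 3065, against 7412 with total count scaling and 6856 with limma, and those of pollinated against unpollinated embryo sac 3646, against 2207 with DESeq2. The cause was not tested. For unpollinated embryo sac against nucellus, the log2 lower bound of the MEG1-described model was 10.23, against 9.49 with total count scaling and with limma and 10.12 with DESeq2 (10.18 to 10.34 on leaving out 1 library). That of the ae1-described model was 8.79, against 8.04 with both (8.58 to 9.02). The LCR70 change was 7.67, against 6.93 with total count scaling and 6.69 with limma (7.34 to 8.13). The ratio of the ae1-described model to LCR70 changed by 2.69, and by 2.63 from RPKM + 1. Low ae1-described models, none called, turned sign. GRMZM2G078799_T01 stood at 0.07, and at -0.10 with total count scaling and -0.08 with limma. On leaving out 1 library it ranged over -0.06 to 0.23, GRMZM2G040020_T01 (-0.09) over -0.46 to 0.43, and GRMZM2G040098_T01 (-0.13) over -0.31 to 0.10. GRMZM2G355761_T01, near the MEG1-described model, stood at -1.09 and lost its call at -0.99 without pollinated replicate 2. Same-numbered libraries deviated from their group means with correlations of -0.021 to 0.018, so no pairing by number was seen. Whether they share a source or batch is not known. With the replicate number as a block, no call of a member changed, LCR70 stood at 2.99 against nucellus and counts were 5104 higher and 5190 lower. Depth limits the low ae1-described models and LCR70 in nucellus, which had 37 reads in all.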
